A study of Homo sapiens with 20 samples.

Results

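The tumour necrosis factor (TNF) receptor and ligand superfamily was followed in proteasome inhibitor-resistant and drug-naive (wild-type, WT) myeloma and B-lymphoblastoid cell lines. Its members were the genes of the expression table named TNFRSF or TNFSF with a number, together with FAS, LTBR, CD40, CD27, NGFR, EDAR, EDA2R, TNF, LTA, LTB, CD70, FASLG and CD40LG. The 5 genes of the BCMA, TACI, BAFF receptor, APRIL and BAFF group (TNFRSF17, TNFRSF13B, TNFRSF13C, TNFSF13 and TNFSF13B) were left out. This gave 41 of the 18305 genes of the table, 25 receptors and 16 ligands. The rule goes by gene name and uses no measured value, although the family was picked with earlier results of these data known.

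Ligands of this family are mostly membrane proteins that assemble as trimers and bring receptor chains together on the same or a neighbouring cell. Death domain receptors such as FAS, TNFRSF1A (TNFR1) and the TRAIL receptors TNFRSF10A and TNFRSF10B can recruit adaptors that start caspase activation, while receptors without a death domain, such as CD27, CD40 and TNFRSF1B (TNFR2), bind TRAF proteins and turn on NF-κB and MAP kinase signalling. In B-lineage cells CD40 and CD27 mark stages of maturation, and CD70, the ligand of CD27, is found on activated lymphocytes and on many B-cell tumours.

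RNA was measured by RNA-seq in 20 libraries, 2 in each of 10 groups, and every value is in FPKM (fragments per kilobase of transcript, scaled to library size). AMO1, L363 and RPMI-8226 are multiple myeloma lines, and ARH-77 is a B-lymphoblastoid line. BtzR cells of all 4 lines were resistant to bortezomib and were kept in 90 nM of it, CfzR cells of AMO1 and L363 were resistant to carfilzomib and were kept in 90 nM of that, and WT cells were the parental lines. Both drugs inhibit the proteasome. Resistant cells were kept in drug, so selection and the drug's direct effect cannot be told apart, and no source used here says whether a resistant line is 1 clone.

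The listed genes summed to between 457317 and 494850 FPKM per library, and between 10455 and 11023 genes reached 1 FPKM. All 8 plasma cell markers checked (such as SDC1, PRDM1 and IRF4) passed 1 FPKM in AMO1, L363 and ARH-77 WT cells and 7 in RPMI-8226 WT cells. Their sums were 3376 to 9108 FPKM in the WT libraries of the myeloma lines and 330 to 333 FPKM in ARH-77 WT, and IRF4 was higher in ARH-77 WT (109 and 106 FPKM) than in RPMI-8226 WT (60.7 and 66.1 FPKM). Among B-cell markers, MS4A1, PAX5, CD22, CD79A and CR2 had between 33.5 and 231 FPKM in the ARH-77 WT libraries, and at most 0.23, 0.14, 0.45, 1.70 and 5.99 FPKM in any library of the myeloma lines. CD79B and CD72 did not set ARH-77 apart, as CD79B had 51.3 and 52.5 FPKM in AMO1 WT against 32.3 and 40.4 in ARH-77 WT, and CD72 had 5.28 and 3.73 FPKM in RPMI-8226 WT against 3.54 and 6.23. T-cell, myeloid and stromal markers summed to at most 13.1, 8.56 and 1.76 FPKM in any library. The 2 libraries of ARH-77 WT were the least alike of any group (Pearson's r across genes of 0.986), and CD40 and TNFRSF4 differed between them by over 1 log2 unit.

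The pair of libraries labelled AMO1 CfzR stood apart from its label in these genes. Among the tested members, 13 differed by at least 1 log2 unit between AMO1 WT and L363 WT, and all 13 were nearer to L363 WT in that pair, whereas 5 were in AMO1 BtzR. TNFRSF10D, a decoy receptor for TRAIL, had 9.31 and 6.17 FPKM in AMO1 WT and 10.4 and 10.8 FPKM in AMO1 BtzR, but 0.01 and 0.02 FPKM in the pair labelled AMO1 CfzR and at most 0.05 FPKM in every L363 library. Across all tested genes these libraries had an r of at least 0.986 with the L363 libraries and at most 0.883 with the other AMO1 libraries. They are therefore called by their label, and are compared both with AMO1 WT and with L363 WT.

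**Figure D1:**
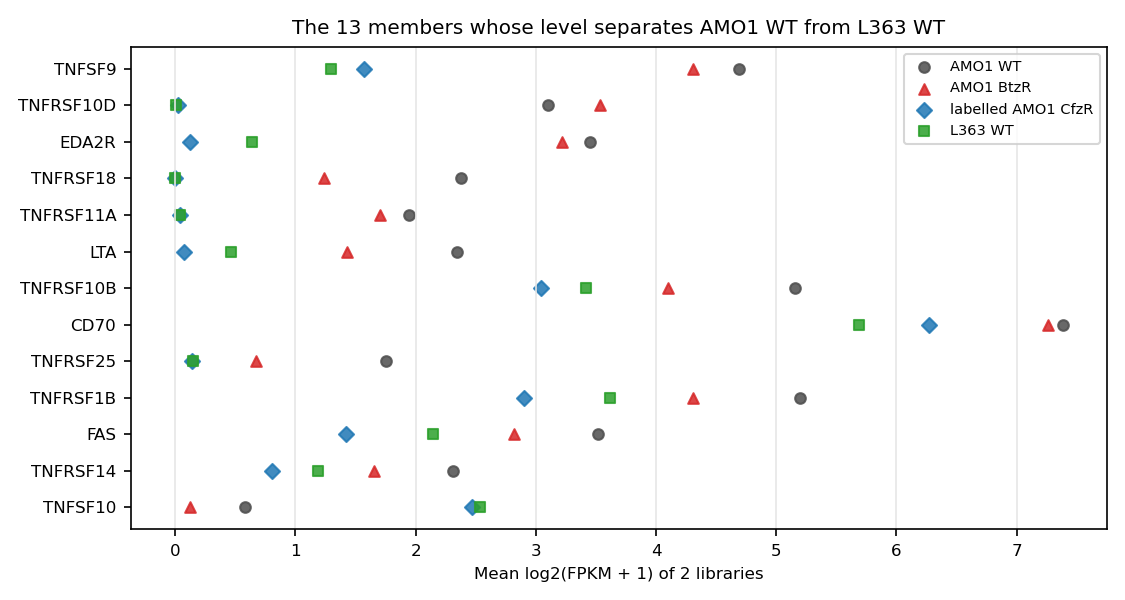
Mean log2(FPKM + 1) of the 2 libraries of AMO1 WT (grey circles), AMO1 BtzR (red triangles), the group labelled AMO1 CfzR (blue diamonds) and L363 WT (green squares) for the 13 members that differed by at least 1 log2 unit between AMO1 WT and L363 WT. In each row the blue diamond is nearer to the green square than to the grey circle.

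The promoters of 6 members are printed. TNFRSF1B and FAS are receptors that were lower in most resistant groups, LTB is a ligand called in 2 lines, LTA and TNFSF14 are ligands with their highest level in ARH-77, and TNFRSF19 is the one member called higher in AMO1 BtzR cells. Each sequence is the 250 bases before a listed transcription start, from RefSeq on GRCh38.p14, 5′ to 3′ on the gene's strand, with matches to the NF-κB consensus on either strand in capitals. The windows are chr1:12166741-12166990 (plus strand) for TNFRSF1B, chr10:88991181-88991430 (plus) for FAS, chr6:31582426-31582675 (minus) for LTB, chr6:31572039-31572288 (plus) for LTA, chr19:6670161-6670410 (minus) for TNFSF14 and chr13:23579110-23579359 (plus) for TNFRSF19.
TNFRSF1B: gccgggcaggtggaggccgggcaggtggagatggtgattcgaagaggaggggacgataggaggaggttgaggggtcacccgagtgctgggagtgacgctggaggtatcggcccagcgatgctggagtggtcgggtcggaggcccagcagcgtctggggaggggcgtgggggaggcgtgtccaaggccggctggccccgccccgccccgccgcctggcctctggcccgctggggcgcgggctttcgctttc
FAS: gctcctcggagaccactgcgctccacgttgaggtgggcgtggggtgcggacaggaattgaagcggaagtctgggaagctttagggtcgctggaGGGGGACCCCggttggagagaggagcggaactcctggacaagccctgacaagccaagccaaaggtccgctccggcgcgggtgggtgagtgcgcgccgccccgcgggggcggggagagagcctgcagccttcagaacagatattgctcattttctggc
LTB: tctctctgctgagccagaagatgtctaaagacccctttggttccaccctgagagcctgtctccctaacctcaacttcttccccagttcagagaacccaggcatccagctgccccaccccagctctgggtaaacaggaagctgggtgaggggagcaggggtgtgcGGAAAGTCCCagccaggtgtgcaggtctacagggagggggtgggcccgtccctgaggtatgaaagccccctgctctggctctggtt
LTA: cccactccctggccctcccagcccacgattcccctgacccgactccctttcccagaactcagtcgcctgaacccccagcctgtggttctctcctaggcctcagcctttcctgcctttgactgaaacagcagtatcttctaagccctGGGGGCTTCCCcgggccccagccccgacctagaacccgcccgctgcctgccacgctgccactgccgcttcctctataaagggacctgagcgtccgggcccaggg
TNFSF14: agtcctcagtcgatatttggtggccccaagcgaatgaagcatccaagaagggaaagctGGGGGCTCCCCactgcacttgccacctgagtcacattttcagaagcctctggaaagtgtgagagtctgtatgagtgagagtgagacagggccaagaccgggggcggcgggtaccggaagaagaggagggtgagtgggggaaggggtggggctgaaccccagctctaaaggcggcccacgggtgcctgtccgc
TNFRSF19: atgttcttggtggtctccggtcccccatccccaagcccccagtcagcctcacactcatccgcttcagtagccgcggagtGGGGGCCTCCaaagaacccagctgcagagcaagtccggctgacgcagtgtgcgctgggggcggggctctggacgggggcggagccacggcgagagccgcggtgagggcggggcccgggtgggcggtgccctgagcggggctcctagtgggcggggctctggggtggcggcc

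The NF-κB letters lay 157 to 148 bases before the start in FAS, 86 to 77 in LTB, 104 to 94 in LTA, 192 to 182 in TNFSF14 and 171 to 162 in TNFRSF19, and the TNFRSF1B window held none. Where a gene had several listed starts, a window with a match was shown. Of the 41 members, 26 had windows in the promoter table, 34 windows in all, and 10 of the 34 windows held the consensus, against 9.96% of the 35116 windows of all genes. These 10 windows belonged to 8 members, which besides the 5 shown were TNFRSF9, TNFRSF14 and TNFSF11. The GC box GGGCGG, which overlaps none of the NF-κB matches shown, was in 21 of the 34 windows against 42.6% of all windows, and the AP-1 letters TGANTCA were in 7 of the 34 against 6.57%. TNFRSF1B held 1 GC box stretch of 11 bases from 55 to 45 bases before its start. A match describes the letters of the window only.

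Of the 41 members, 31 had a mean of 1 FPKM or more in some group and were tested, and 10 did not. Those 10 were the ligands FASLG, CD40LG, TNFSF8, TNFSF11, TNFSF12, TNFSF15, TNFSF18 and the readthrough gene TNFSF12-TNFSF13, and the receptors EDAR and LTBR. The highest single value among them was 0.89 FPKM, for TNFSF8, the CD30 ligand, in RPMI-8226 WT. Only 6 members reached 1 FPKM in all 10 groups, namely CD70, LTB, TNFRSF10A, TNFRSF10B, TNFRSF1B and TNFRSF8. ARH-77 WT and BtzR cells each had 26 members at 1 FPKM or more, AMO1 WT had 21, RPMI-8226 WT had 20 and L363 WT had 11.

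A gene was called where limma's moderated test gave a Benjamini-Hochberg adjusted p under 0.05 over all 13089 tested genes and the log2-fold change on the log2(FPKM + 1) scale was at least 1 in size. The scale understates changes of genes near 1 FPKM. The 5 own-line comparisons set the resistant cells of AMO1 (BtzR), L363 (BtzR and CfzR), RPMI-8226 and ARH-77 against the WT cells of the same line.

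**Figure D2:**
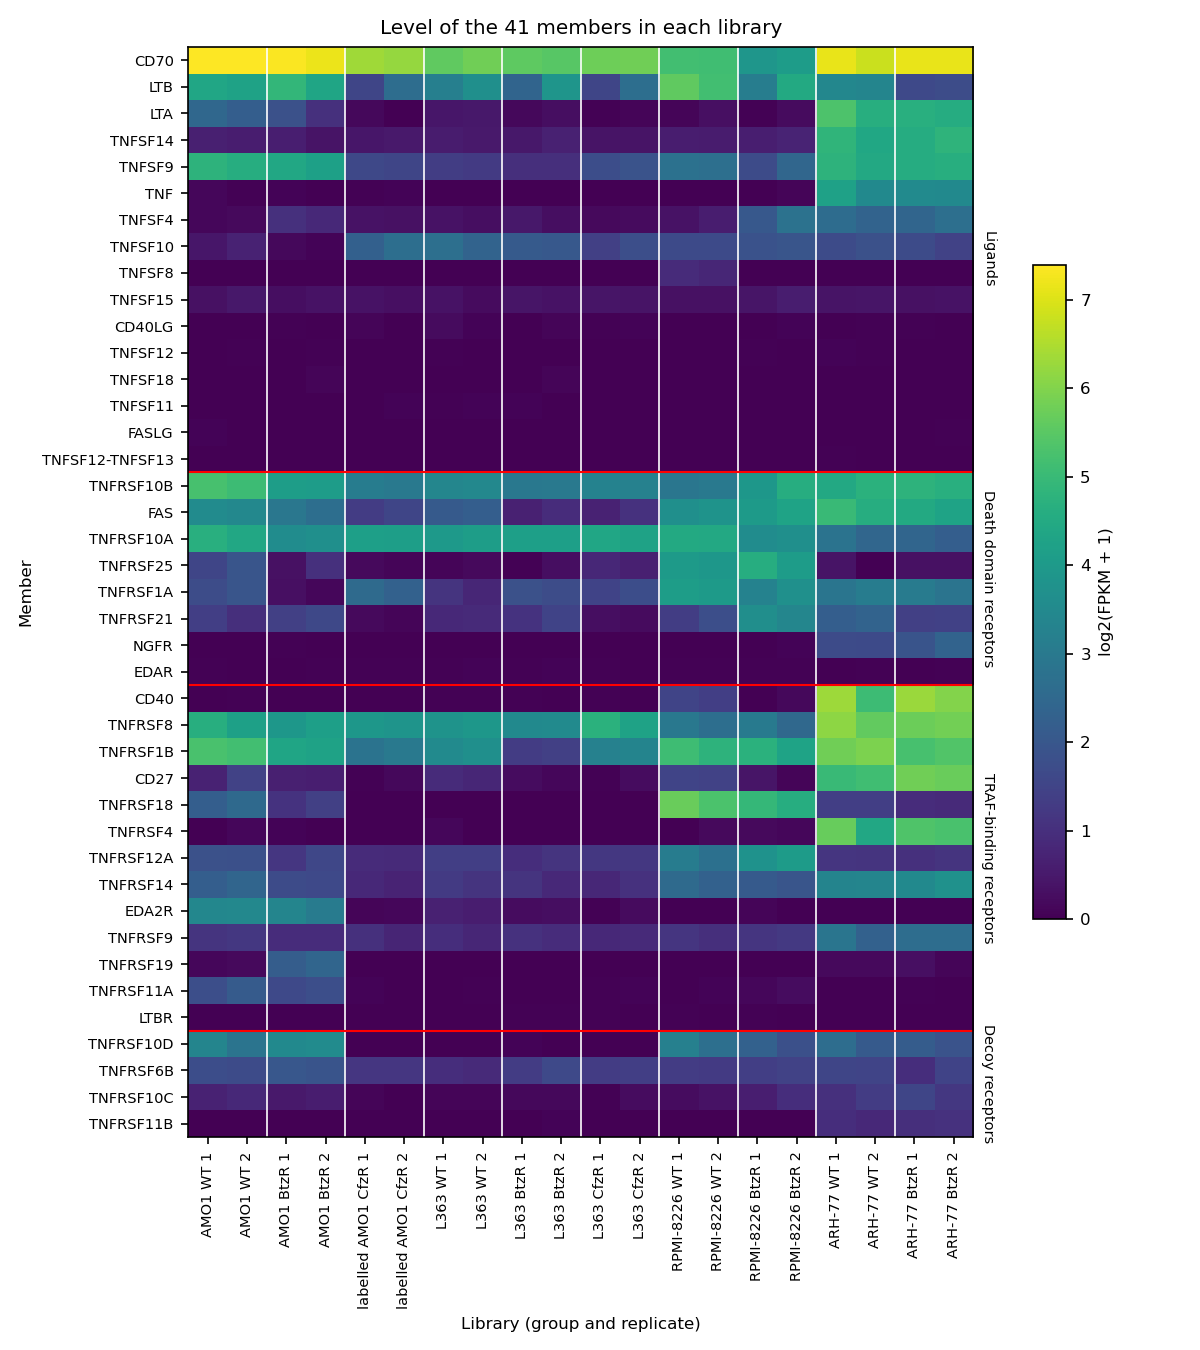
Colour shows log2(FPKM + 1) for each of the 41 members (rows, by role, separated by red lines) in each of the 20 libraries (columns, 2 per group). CD70 is bright in every column, and CD40, TNFRSF4, TNF and TNFSF14 are bright in the 4 ARH-77 columns.

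CD70, the ligand of CD27, was the most abundant member in 8 of the 10 groups, the exceptions being both RPMI-8226 groups, where TNFRSF18 was. Its FPKM were 165 and 167 in AMO1 WT, 161 and 145 in AMO1 BtzR, 79.2 and 73.4 in the pair labelled AMO1 CfzR, 142 and 112 in ARH-77 WT and 142 and 142 in ARH-77 BtzR. The 6 L363 libraries had between 43.8 and 54.6 FPKM, and RPMI-8226 had 34.5 and 33.7 FPKM in WT and 13.7 and 15.9 FPKM in BtzR. Levels were thus high in AMO1 and ARH-77, and lowest in RPMI-8226 BtzR.

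LTB (lymphotoxin beta, which anchors LTA at the membrane) was present in all lines and varied most between replicates. It had 19.8 and 18.1 FPKM in AMO1 WT, 28.8 and 19.5 in AMO1 BtzR, 1.90 and 5.24 in the pair labelled AMO1 CfzR, 8.18 and 11.9 in L363 WT, 4.19 and 13.4 in its BtzR cells and 1.92 and 5.39 in its CfzR cells. RPMI-8226 had 47.3 and 35.0 FPKM in WT and 7.72 and 21.4 in BtzR, and ARH-77 had 9.75 and 9.24 in WT and 2.10 and 2.28 in BtzR. The replicates of L363 BtzR were 1.47 log2 units apart, so that L363 BtzR overlapped L363 WT, while in RPMI-8226 and ARH-77 both BtzR libraries lay below both WT libraries.

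LTA (lymphotoxin alpha) and TNF, its neighbour on chromosome 6, did not share LTB's distribution. LTA had 39.3 and 23.8 FPKM in ARH-77 WT, 24.5 and 22.8 in ARH-77 BtzR, 4.55 and 3.67 in AMO1 WT and 2.55 and 1.04 in AMO1 BtzR, and at most 0.40 FPKM in each of the 12 other libraries. TNF had 17.9 and 10.4 FPKM in ARH-77 WT, 10.7 and 10.4 in ARH-77 BtzR, and at most 0.10 FPKM in each library of the other lines. TNFSF14 (LIGHT, a ligand of TNFRSF14) was also high in ARH-77, with 27.77 and 19.99 FPKM in ARH-77 WT, 22.9 and 27.2 in ARH-77 BtzR and at most 0.68 FPKM elsewhere. All 3 were thus highest in ARH-77, in WT and BtzR alike.

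TNFSF9 (the 4-1BB ligand) was high in AMO1 and ARH-77. It had 26.6 and 23.3 FPKM in AMO1 WT, 20.5 and 17.3 in AMO1 BtzR, 26.3 and 21.1 in ARH-77 WT, 22.8 and 23.7 in ARH-77 BtzR, 5.73 and 5.53 in RPMI-8226 WT and 2.22 and 4.39 in RPMI-8226 BtzR. The pair labelled AMO1 CfzR had 2.02 and 1.93 FPKM, and the 6 L363 libraries had 0.98 to 2.69 FPKM. Both BtzR libraries were below both WT libraries in AMO1, L363 and RPMI-8226, with log2-fold changes of -0.38, -0.31 and -0.67 that were not called.

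TNFSF4 (the OX40 ligand) had 0.28 and 0.51 FPKM in RPMI-8226 WT and 3.09 and 5.92 in RPMI-8226 BtzR, so that the resistant cells reached the level of ARH-77, with 5.18 and 4.12 FPKM in WT and 4.27 and 5.45 in BtzR. AMO1 had 0.09 and 0.14 FPKM in WT and 1.02 and 0.80 in BtzR, and L363 and the pair labelled AMO1 CfzR had at most 0.39 FPKM. TNFSF10 (TRAIL), the ligand of the death receptors TNFRSF10A and TNFRSF10B, had group means from 0.09 FPKM in AMO1 BtzR to 4.84 FPKM in L363 WT.

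Among the death domain receptors, both TRAIL receptors were present in every library. TNFRSF10A had 24.2 and 20.5 FPKM in AMO1 WT, 11.0 and 11.9 in AMO1 BtzR, 17.2 and 16.9 in the pair labelled AMO1 CfzR, 15.0 to 19.7 in the 6 L363 libraries, 21.5 and 20.9 in RPMI-8226 WT, 11.1 and 11.8 in RPMI-8226 BtzR, 6.03 and 4.47 in ARH-77 WT and 4.33 and 3.61 in ARH-77 BtzR. The BtzR libraries of AMO1, RPMI-8226 and ARH-77 were all below their WT libraries, at log2-fold changes of -0.90, -0.83 and -0.32, while both resistant groups of L363 were above WT, at 0.12 in BtzR and 0.27 in CfzR. None of these was called. TNFRSF10B had 36.6 and 32.7 FPKM in AMO1 WT, 16.2 and 16.1 in AMO1 BtzR, 7.52 and 7.01 in the pair labelled AMO1 CfzR, 9.47 and 9.94 in L363 WT, 6.77 and 6.87 in its BtzR cells, 8.63 and 8.59 in its CfzR cells, 6.42 and 6.91 in RPMI-8226 WT, 14.0 and 23.3 in RPMI-8226 BtzR, 21.2 and 25.2 in ARH-77 WT and 26.2 and 24.3 in ARH-77 BtzR. It was therefore lower in BtzR than in WT cells of AMO1 and L363, higher in RPMI-8226 BtzR, and overlapping in ARH-77.

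FAS, the receptor of FASLG, had 10.9 and 10.0 FPKM in AMO1 WT, 6.70 and 5.43 in AMO1 BtzR, 1.47 and 1.92 in the pair labelled AMO1 CfzR, 3.25 and 3.60 in L363 WT, 0.60 and 0.91 in its BtzR cells and 0.64 and 1.08 in its CfzR cells. In RPMI-8226 it had 11.9 and 12.8 FPKM in WT and 15.3 and 18.6 in BtzR, and in ARH-77 31.0 and 23.3 in WT and 21.5 and 18.6 in BtzR. Resistant libraries lay below WT in AMO1, L363 and ARH-77 and above it in RPMI-8226.

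TNFRSF1A, which carries a death domain and binds TNF and LTA, had 2.29 and 2.89 FPKM in AMO1 WT and 0.24 and 0.09 in AMO1 BtzR. The pair labelled AMO1 CfzR had 4.93 and 3.96 FPKM, and L363 had 1.14 and 0.73 in WT, 2.53 and 2.29 in BtzR and 1.80 and 2.34 in CfzR. RPMI-8226 had 16.3 and 15.2 FPKM in WT and 8.66 and 12.1 in BtzR, and ARH-77 had 6.30 and 7.52 in WT and 7.49 and 6.24 in BtzR. It was thus lower in BtzR cells of AMO1 and RPMI-8226, higher in both resistant groups of L363, and overlapping in ARH-77.

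TNFRSF21 (DR6) had 1.59 and 0.98 FPKM in AMO1 WT, 1.65 and 2.05 in AMO1 BtzR, 0.79 and 0.86 in L363 WT, 1.12 and 1.82 in its BtzR cells, 0.21 and 0.16 in its CfzR cells and 0.13 and 0.07 in the pair labelled AMO1 CfzR. In RPMI-8226 it had 1.56 and 2.40 FPKM in WT and 11.5 and 9.53 in BtzR, and in ARH-77 3.63 and 4.09 in WT and 1.62 and 1.68 in BtzR. The RPMI-8226 BtzR libraries were the only ones above 5 FPKM. TNFRSF25 (DR3) was highest in RPMI-8226, with 15.3 and 14.0 FPKM in WT and 23.3 and 16.0 in BtzR, and had 1.93 and 2.89 FPKM in AMO1 WT and 0.26 and 1.02 in AMO1 BtzR. L363 CfzR had 0.77 and 0.56 FPKM of TNFRSF25, and the 10 other libraries had at most 0.31 FPKM. NGFR, the neurotrophin receptor p75, had group means from 0 to 3.46 FPKM and reached 1 FPKM in ARH-77 alone.

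Among the receptors that bind TRAF proteins, TNFRSF1B had 37.3 and 34.4 FPKM in AMO1 WT, 19.4 and 18.3 in AMO1 BtzR, 6.05 and 6.96 in the pair labelled AMO1 CfzR, 10.7 and 11.9 in L363 WT, 1.48 and 1.65 in its BtzR cells and 8.55 and 9.02 in its CfzR cells. RPMI-8226 had 32.9 and 26.5 FPKM in WT and 25.6 and 18.6 in BtzR, and ARH-77 had 54.9 and 60.6 in WT and 36.9 and 40.6 in BtzR. Every resistant library lay below every WT library of its line. TNFRSF8 (CD30), its neighbour on chromosome 1, had 23.9 and 17.6 FPKM in AMO1 WT, 14.0 and 16.9 in AMO1 BtzR, 14.2 and 13.2 in the pair labelled AMO1 CfzR, 13.1 and 14.0 in L363 WT, 10.4 and 10.6 in its BtzR cells, 25.1 and 18.0 in its CfzR cells, 4.69 to 7.06 in the 4 RPMI-8226 libraries, 69.7 and 47.9 in ARH-77 WT and 51.7 and 55.5 in ARH-77 BtzR. TNFRSF8 was called in no own-line comparison.

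CD40, the receptor through which T cells activate B cells, had 78.6 and 32.5 FPKM in ARH-77 WT and 76.2 and 64.5 in ARH-77 BtzR. In RPMI-8226 it had 1.86 and 1.58 FPKM in WT and 0 and 0.11 in BtzR, and the 12 AMO1 and L363 libraries had at most 0.04 FPKM. CD27 had 31.4 and 34.0 FPKM in ARH-77 WT, 54.6 and 51.5 in ARH-77 BtzR, 1.87 and 1.74 in RPMI-8226 WT, 0.34 and 0.08 in RPMI-8226 BtzR, 0.62 and 1.75 in AMO1 WT, 0.57 and 0.54 in AMO1 BtzR, 0.87 and 0.74 in L363 WT, 0.18 and 0.09 in its BtzR cells, 0.04 and 0.18 in its CfzR cells and 0.04 and 0.12 in the pair labelled AMO1 CfzR. Both were thus highest in the B-lymphoblastoid line, and CD27 was lower in BtzR than in WT libraries of the 3 myeloma lines and higher in BtzR libraries of ARH-77.

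TNFRSF18 (GITR) and TNFRSF4 (OX40) stand next to each other on chromosome 1 and were high in different lines. TNFRSF18 had 51.1 and 38.7 FPKM in RPMI-8226 WT, 29.1 and 23.6 in RPMI-8226 BtzR, 3.64 and 4.82 in AMO1 WT, 1.11 and 1.63 in AMO1 BtzR, 1.61 and 1.61 in ARH-77 WT and 0.92 and 0.83 in ARH-77 BtzR, and was listed at 0 in all 6 L363 libraries and both libraries labelled AMO1 CfzR. TNFRSF4 had 50.0 and 20.7 FPKM in ARH-77 WT and 40.0 and 37.6 in ARH-77 BtzR, and at most 0.15 FPKM elsewhere.

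TNFRSF12A (the TWEAK receptor Fn14) was highest in RPMI-8226, with 7.62 and 5.57 FPKM in WT and 12.6 and 15.6 in BtzR, a log2-fold change of 0.998 that lay just under the threshold of 1. It had 2.58 and 2.49 FPKM in AMO1 WT, 1.24 and 2.00 in AMO1 BtzR, and 0.84 to 1.61 FPKM in the 12 other libraries. TNFRSF14 (HVEM) had 9.07 and 9.34 FPKM in ARH-77 WT, 10.5 and 12.4 in ARH-77 BtzR, 3.60 and 4.35 in AMO1 WT, 2.21 and 2.08 in AMO1 BtzR, 4.90 and 3.95 in RPMI-8226 WT, 3.23 and 2.90 in RPMI-8226 BtzR, and 0.68 to 1.39 FPKM in the 8 libraries of L363 and of the group labelled AMO1 CfzR. TNFRSF14 was lower in the BtzR libraries of all 3 myeloma lines and higher in those of ARH-77, each by less than 1 log2 unit.

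TNFRSF19 (TROY) had 0.10 and 0.14 FPKM in AMO1 WT and 3.54 and 4.35 in AMO1 BtzR. It was listed at 0 in all 12 libraries of L363, RPMI-8226 and the group labelled AMO1 CfzR, and had 0.07 to 0.23 FPKM in ARH-77, so AMO1 BtzR was its single group above 1 FPKM. EDA2R, a receptor for ectodysplasin A2, had group means from 0 to 9.92 FPKM with its maximum in AMO1 WT, and TNFRSF11A (RANK) from 0.005 to 2.88 FPKM, also with its maximum in AMO1 WT. TNFRSF9 (4-1BB) had group means of 0.835 to 5.26 FPKM, highest in ARH-77 BtzR.

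The decoy receptors bind ligand without passing on a signal. TNFRSF10D, with the AMO1 and L363 values given above, had 8.23 and 5.53 FPKM in RPMI-8226 WT, 3.87 and 2.52 in RPMI-8226 BtzR, 5.24 and 3.31 in ARH-77 WT and 3.42 and 2.68 in ARH-77 BtzR. It was thus near 0 in L363 alone among the 4 lines, and lower in RPMI-8226 BtzR than in WT without being called. TNFRSF6B (DcR3) had group means of 0.90 to 2.90 FPKM, TNFRSF10C of 0.035 to 1.60 FPKM and TNFRSF11B (osteoprotegerin) of 0 to 1.04 FPKM. TNFRSF6B overlaps RTEL1, and TNFRSF10A to TNFRSF10D are closely related neighbours on chromosome 8. How reads shared between such genes were counted, and whether strand was used, is not given in the sources used here, so these values are less certain.

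In the WT cells, the mean of the 3 myeloma lines differed from ARH-77 in 19 members, 4 higher and 15 lower, where 22.3% of all genes tested were called. The 4 that were higher in myeloma were TNFRSF25 (1.76 ± 0.17, adjusted p = 3.05e-07), TNFRSF10A (1.72 ± 0.09, adjusted p = 3.34e-10), EDA2R and TNFRSF18, although the levels given above show that EDA2R was high in AMO1 alone, through which it passed the filter, and TNFRSF18 was listed at 0 in L363. TNFRSF25 was higher in AMO1 and RPMI-8226 only, since L363 WT (0.07 and 0.15 FPKM) overlapped ARH-77 WT (0.31 and 0 FPKM). Errors of log2-fold changes are standard errors throughout.

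Of the 31 tested members, 6 passed the filter on low values only through ARH-77, namely NGFR, TNF, TNFRSF4, TNFRSF10C, TNFRSF11B and TNFSF14. They could enter this comparison only by being high there, so the count of 15 is a description and no p is given for these 6. Among the 25 others, 4 were higher and 11 lower in myeloma. The 11 were led by CD40 (-5.18 ± 0.20, adjusted p = 8.65e-12), LTA (-3.98 ± 0.18, adjusted p = 5.06e-11) and CD27 (-3.93 ± 0.14, adjusted p = 3.98e-12), and TNFRSF8, TNFSF4, TNFSF9, FAS, TNFRSF9, TNFRSF14, TNFRSF1B and TNFRSF21 made up the rest. TNFSF9 was lower in L363 and RPMI-8226 only, since AMO1 WT (26.6 and 23.3 FPKM) overlapped ARH-77 WT (26.3 and 21.1 FPKM). By limma's moderated F test the WT level differed between the 4 lines in 30 of the 31 tested members, the exception being TNFRSF19, where 92.6% of all genes tested passed. That share is close to the members' own. The 30 take in the 6 members set aside above, and EDA2R and TNFRSF11A, which passed the filter only through AMO1. TNFRSF19 passed it only through AMO1 BtzR, with means of at most 0.14 FPKM in the WT groups. The filter thus bears on both the count and its exception, and the count is a description.

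Ligands and their receptors were set side by side in 19 textbook pairs. Both partners reached 1 FPKM in 10 of the 19 pairs in ARH-77 WT and in ARH-77 BtzR, in 4 in AMO1 WT, 4 in RPMI-8226 WT and 2 in L363 WT. The resistant groups had 1 such pair in AMO1 BtzR, 3 in RPMI-8226 BtzR and 2 each in both resistant groups of L363 and the group labelled AMO1 CfzR. TNFSF10 met both TNFRSF10A and TNFRSF10B in 8 of 10 groups, all but AMO1 WT and AMO1 BtzR. CD70 met CD27 in AMO1 WT, RPMI-8226 WT and both ARH-77 groups, and stood without it in the 6 others.

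LTB was the clearest ligand without its receptor. LTBR, the lymphotoxin beta receptor, had at most 0.03 FPKM in any library, while LTB reached 1 FPKM in all 10 groups. In the opposite direction, TNFRSF8 was present in all 10 groups and TNFRSF12A in 9 with their ligands TNFSF8 and TNFSF12 under 1 FPKM, and FAS was present in 8 groups with FASLG at no more than 0.06 FPKM. OX40 and its ligand met in ARH-77 alone, since RPMI-8226 BtzR gained TNFSF4 without TNFRSF4.

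**Figure D3:**
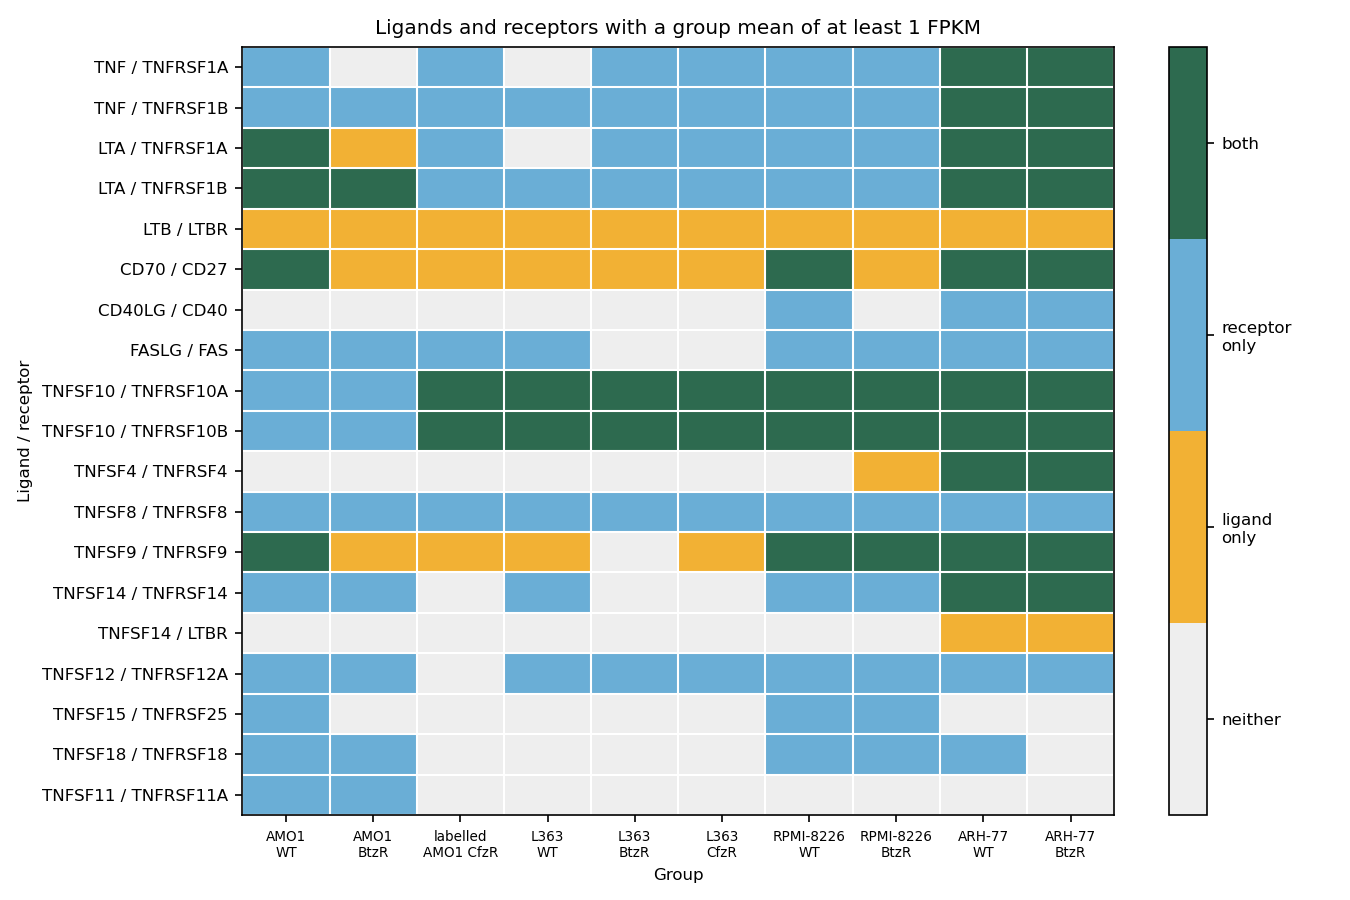
Each tile states whether the ligand, the receptor, both or neither of a pair (rows) had a mean of 1 FPKM or more in a group (columns). Both ARH-77 columns have 10 green tiles each, and the LTB / LTBR row is yellow (ligand only) in all 10 groups.

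Members that are next to each other among protein-coding genes formed 14 neighbouring pairs over 23 members in the RefSeq order of GRCh38.p14. In 4 of these pairs one neighbour reached 1 FPKM without the other in at least 5 of the 10 groups. Besides TNFRSF18 and TNFRSF4 (5 groups), these were TNF and LTB (8 groups), CD70 and TNFSF14 (8 groups) and TNFRSF10B and TNFRSF10C (8 groups). TNFRSF8 and TNFRSF1B, by contrast, reached it together in all 10 groups, and TNFSF9 and CD70 both did in 9.

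In AMO1, bortezomib-resistant cells had less of 3 death domain receptors, less TNFRSF18 and more TNFRSF19. TNFRSF1A fell by 1.62 on the log2 scale (SE 0.16, adjusted p = 1.61e-06), TNFRSF10B by 1.06 (SE 0.16, adjusted p = 6.4e-05) and TNFRSF25 by 1.08 (SE 0.21, adjusted p = 0.000661). TNFRSF18 fell by 1.14 (SE 0.14, adjusted p = 1.24e-05). TNFRSF19, with a log2-fold change of 2.14 (SE 0.08), passed the filter on low values only through AMO1 BtzR, so its difference is a description and no p is given. These were 5 members, 1 higher and 4 lower, where 9.18% of all genes tested were called in either direction. The median over the 7 tested death domain receptors was -0.90 log2 units and over all tested members -0.23, against -0.002 over all tested genes. Without WT replicate 1 TNFRSF10B was at -0.98 and was no longer called, and without WT replicate 2 or BtzR replicate 1 neither TNFRSF18 (-0.98 at the smallest) nor TNFRSF25 (-0.74 at the smallest) was called. TNFRSF25 was not called with a pseudocount of 0.01 FPKM either. Plasma cell markers summed to 6883 to 8324 FPKM in WT and 4731 to 5251 FPKM in BtzR cells of this line. Of the 8, 2 (SDC1 and CD38) were called lower. JCHAIN and IRF4 were lower without a call, and XBP1 overlapped. SLAMF7, PRDM1 and MZB1 had both BtzR libraries above both WT libraries, also without a call. The part of these markers in the differences above was not tested. In bulk RNA, fewer cells with a transcript and less of it per cell cannot be told apart.

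In L363, where plasma cell markers summed to 6895 to 9108 FPKM in WT, 5825 to 6273 in BtzR and 5372 to 5875 in CfzR cells, FAS was lower with resistance to either drug. It fell by 1.34 log2 units in BtzR (SE 0.16, adjusted p = 4.29e-05) and by 1.26 in CfzR (SE 0.16, adjusted p = 9.06e-05), and the 2 comparisons share the L363 WT libraries. TNFRSF1B fell by 2.26 in BtzR (SE 0.13, adjusted p = 2.9e-08), to 13.8% of its WT mean. In CfzR its log2-fold change was -0.33 (SE 0.13, adjusted p = 0.183) at 77.7% of the WT mean. The calls were thus 2 members in BtzR, where 2.06% of all genes tested were called, and 1 in CfzR, where 1.93% were.

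Compared with each other, the resistant groups of L363 differed in TNFRSF1B, which was 1.93 log2 units higher in CfzR (SE 0.13, adjusted p = 2.23e-07), and in TNFRSF21, which was lower by 1.05 (log2-fold change -1.05, SE 0.16, adjusted p = 0.000665). That is 2 members, where 1.47% of all genes tested were called. FAS did not separate the 2 resistant groups, with a log2 difference of 0.08 (SE 0.16, adjusted p = 0.973) and overlapping libraries. The TNFRSF21 call was lost without BtzR replicate 2, at a difference of -0.84.

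RPMI-8226 had the most called members, 3 higher and 4 lower, where 13.8% of all genes tested were called. TNFRSF21 rose by 1.96 log2 units (SE 0.16, adjusted p = 9.7e-08), TNFSF4 by 1.94 (SE 0.19, adjusted p = 5.5e-07) and TNFRSF10B by 1.32 (SE 0.16, adjusted p = 5.35e-06). CD70 fell by 1.15 (SE 0.11, adjusted p = 3.67e-07) and its receptor CD27 by 1.22 (SE 0.18, adjusted p = 3.98e-05), so that both partners of that pair were lower. CD40 fell by 1.37 (SE 0.25, adjusted p = 0.00032) and LTB by 1.58 (SE 0.51, adjusted p = 0.0172). The median over tested members was 0.05, as over all tested genes (0.05). Over the 7 tested death domain receptors it was 0.38 in this line, where 2 of them were called higher and 0 lower. The call of TNFRSF10B was lost without BtzR replicate 2, at 0.97, and that of LTB without WT replicate 1 or BtzR replicate 1, with -0.89 at the smallest. Plasma cell markers summed to 3376 to 3660 FPKM in WT and 1669 to 1951 FPKM in BtzR cells of this line. Of the 8, 2 (JCHAIN and CD38) were called lower. MZB1 and SLAMF7 were lower without a call, and SDC1 overlapped. PRDM1, XBP1 and IRF4 had both BtzR libraries above both WT libraries, also without a call. The part of these markers in the differences above was not tested.

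In ARH-77 only LTB was called, where 1.6% of all genes tested were. It fell by 1.72 log2 units (SE 0.51, adjusted p = 0.0374), to 0.231 times its WT mean. The 2 replicates of each ARH-77 group were at most 0.08 log2 units apart for LTB, while its standard error pools the spread over all groups, in which replicates of LTB were up to 1.47 log2 units apart. The call was lost without the filter on low values and without any 1 of the 4 ARH-77 libraries, at log2-fold changes between -1.76 and -1.68. Of the 8 plasma cell markers, CD38 was called lower in ARH-77 BtzR, and its part in this difference was not tested.

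**Figure D4:**
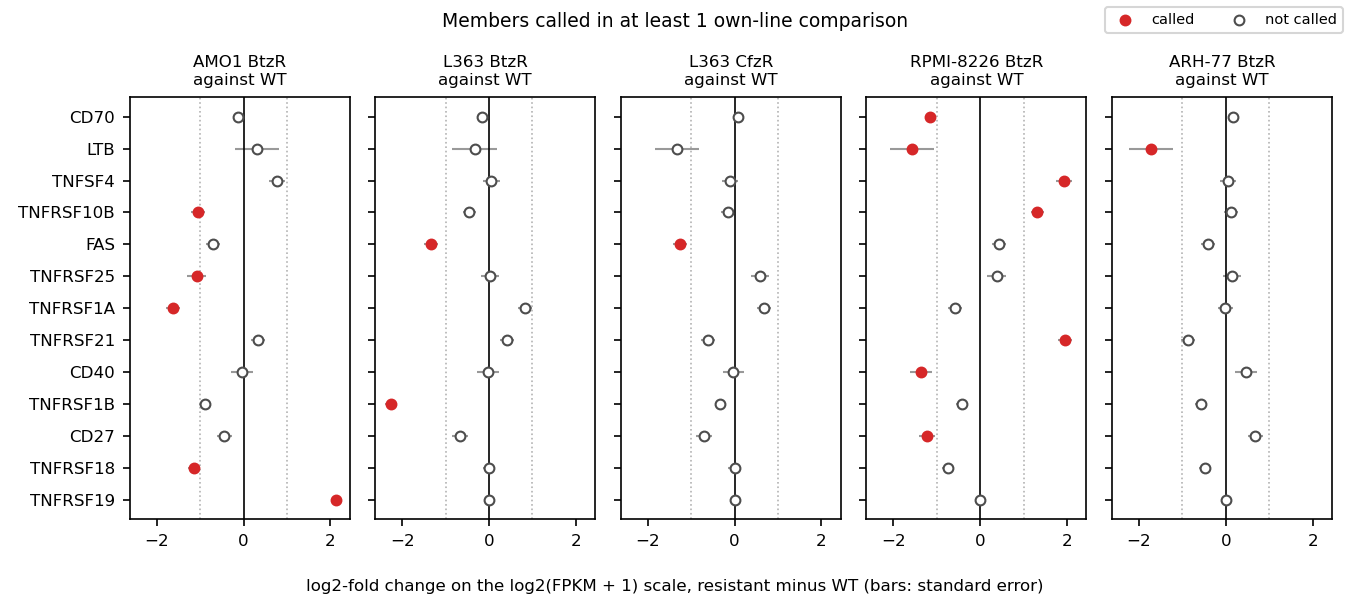
Log2-fold change on the log2(FPKM + 1) scale, resistant minus WT, with its standard error (bars) for the 13 members called in at least 1 of the 5 comparisons with WT cells of the same line. Red points were called and open points were not, dotted lines mark a log2-fold change of 1 in either direction, and TNFRSF1B lies left of 0 in every panel.

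TNFRSF1B was the member whose BtzR libraries lay below the WT libraries in all 4 lines. Such separation in 1 direction in all 4 lines was seen in 3.42% of all genes tested, and downwards in 1.89%. Beside the fall of 2.26 in L363, the log2-fold changes were -0.89 in AMO1 (SE 0.13, adjusted p = 7.02e-05), -0.42 in RPMI-8226 (SE 0.13, adjusted p = 0.0159) and -0.56 in ARH-77 (SE 0.13, adjusted p = 0.0112). Its mean effect over the 4 lines was -1.03 (SE 0.07, adjusted p = 1.4e-08), the 1 member called there, where 1.7% of all genes tested were. That value stands close to the fold threshold and was -0.98 without RPMI-8226 BtzR replicate 2 and -0.995 without RPMI-8226 WT replicate 1 or with quantile normalization, no longer called in each case. The size of the fall differed between lines (adjusted p = 3.22e-06, limma's moderated F test) and was largest in L363. Libraries and not lines were the replicates of the mean effect, so its SE and p do not measure the spread between lines.

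**Figure D5:**
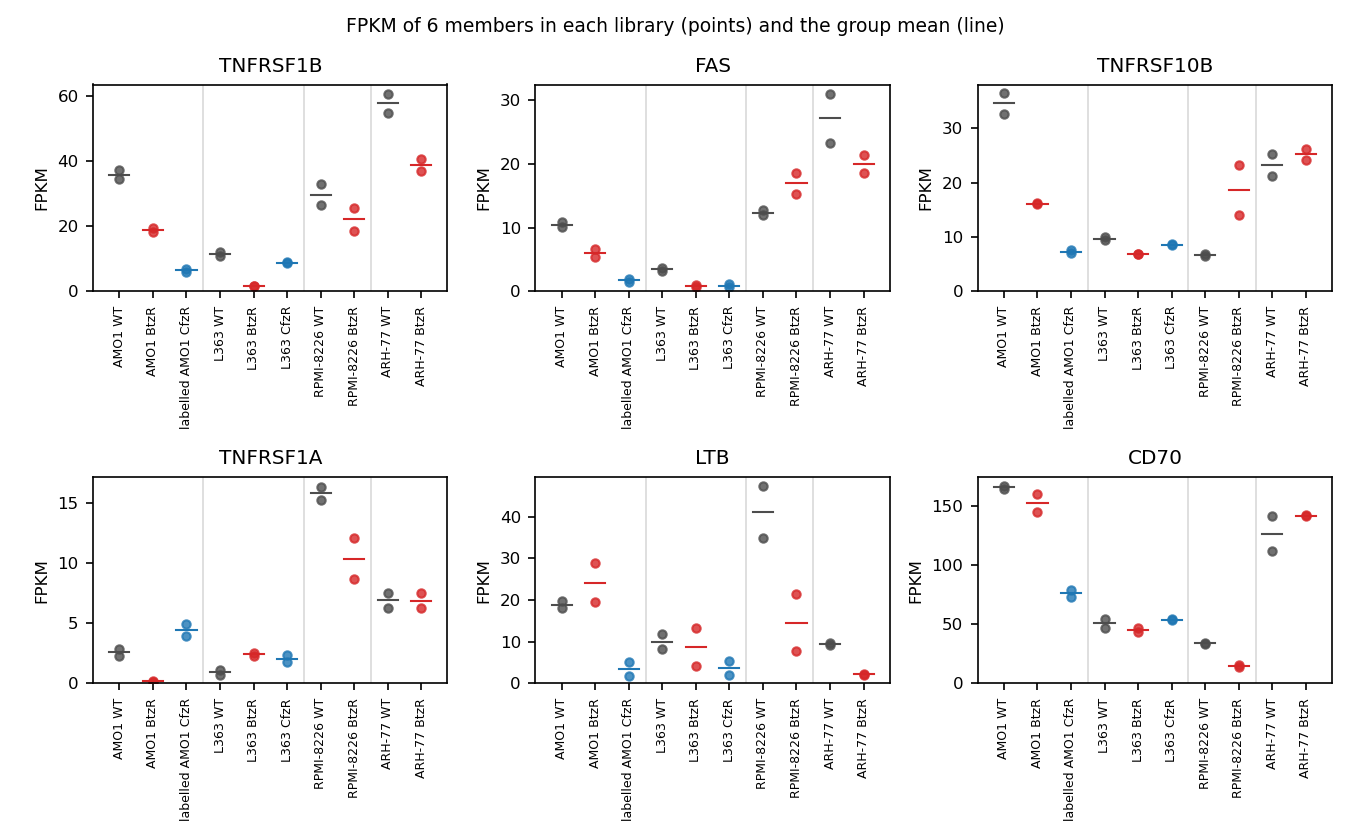
FPKM of 6 members in each library (points) with the group mean (line), on linear axes from 0, for WT (grey), BtzR (red) and CfzR (blue) groups. For TNFRSF1B the resistant points of each line lie below its WT points, while TNFRSF10B is lower in AMO1 BtzR and higher in RPMI-8226 BtzR.

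What bortezomib resistance went with differed from line to line in 21 of the 31 tested members, where 71.1% of all genes tested passed the same F test, a share much like the members' own. Among the 21, TNFRSF19, EDA2R, NGFR and TNFRSF10C passed the filter on low values only through a single line, so the count is a description. TNFRSF10B fell in AMO1 and rose in RPMI-8226 (adjusted p = 2.52e-06). FAS had log2-fold changes of -0.70, -1.34 and -0.41 in AMO1, L363 and ARH-77 and of 0.43 in RPMI-8226 (adjusted p = 8.24e-05). TNFRSF1A had -1.62 in AMO1 and 0.82 in L363 (adjusted p = 3.34e-06), and TNFRSF21 had 1.96 in RPMI-8226 and -0.87 in ARH-77 (adjusted p = 7.72e-07). CD27 had -1.22 in RPMI-8226 and 0.68 in ARH-77 (adjusted p = 8.9e-05). LTB, called in 2 lines, did not pass this test (adjusted p = 0.0521).

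Against AMO1 WT, the libraries labelled AMO1 CfzR differed in 15 members, 14 lower and TNFSF10 higher, where 17.1% of all genes tested were called. Among the 14, EDA2R and TNFRSF11A passed the filter on low values only through AMO1 WT and BtzR, so the count is a description. The largest differences were in EDA2R (-3.33 ± 0.09, with no p given), TNFSF9 (-3.12 ± 0.18, adjusted p = 1.13e-09) and TNFRSF10D (-3.08 ± 0.21, adjusted p = 7.89e-09). Against L363 WT they differed in 1 member, TNFRSF1A, which was 1.495 log2 units higher (SE 0.16, adjusted p = 2.01e-05), where 1.66% of all genes tested were called. In both comparisons the line of these libraries and the drug cannot be told apart. TNFRSF1B and FAS were lower in them than in either WT group (log2-fold changes against L363 WT of -0.71 and -0.72, adjusted p = 0.00318 and 0.0113).

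Other genes of the pathway were followed as lists. Of 37 adaptors, kinases and caspases that carry these receptors' signals, 3 (8.11%) were called in AMO1 BtzR, 3 in RPMI-8226 BtzR and 1 (2.7%) in L363 CfzR. Over all genes tested the shares were 9.18%, 13.8% and 1.93%, so these counts are no result about the list. TRAF1, an adaptor that is itself an NF-κB target, rose in AMO1 BtzR and RPMI-8226 BtzR (log2-fold changes 1.96 and 2.24, adjusted p = 0.000554 and 0.000148). Of 9 NF-κB subunits and inhibitors, 4 (44.4%) rose in AMO1 BtzR, where 9.18% of all genes tested were called in either direction, with a median of 0.76 against -0.002 over all tested genes. NFKBIA, which encodes the inhibitor IκBα, rose from 20.5 and 17.3 to 78.8 and 68.0 FPKM there (log2-fold change 1.90, adjusted p = 2.92e-05) and was called in ARH-77 BtzR also (1.30, adjusted p = 0.00339), where WT replicates had 71.3 and 29.8 FPKM. RELB, an NF-κB subunit, rose by 1.27 in AMO1 BtzR (adjusted p = 0.000631) and fell by 1.44 in RPMI-8226 BtzR (adjusted p = 0.000182).

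Of the 10 genes for processing ligands or controlling their mRNA, 9 were tested. ZFP36L1, a protein that marks AU-rich mRNAs for decay, rose in AMO1 BtzR (2.99, adjusted p = 1.76e-06) and RPMI-8226 BtzR (1.42, adjusted p = 0.00114). The related genes ZFP36 and ZFP36L2, named here only for comparison, did not rise with it. In AMO1 BtzR their log2-fold changes were -1.78 (adjusted p = 9.53e-05, called) and -0.776 (adjusted p = 7.2e-05, not called). In RPMI-8226 ZFP36L2 had 79.5 and 78.57 FPKM in WT and 34.19 and 42.53 in BtzR, and ZFP36 overlapped. LITAF, named for its induction by lipopolysaccharide and picked out here after its values were seen, fell by 1.31 in AMO1 BtzR (adjusted p = 3.4e-06) and by 1.24 in L363 BtzR (adjusted p = 2.83e-05). In total 3 of the 9 (33.3%) were called in AMO1 BtzR, 1 of them higher, and 2 (22.2%) in RPMI-8226 BtzR, 1 of them higher, against 9.18% and 13.8% of all genes tested. In L363 BtzR 1 of the 9 (11.1%), LITAF, was called, against 2.06% of all genes tested. TNF, whose mRNA carries such elements, had at most 0.10 FPKM in each library of AMO1, L363 and RPMI-8226. A fall of TNF could therefore not have been called in these lines, and TNF was called in no own-line comparison.

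Among the cell type markers, CD38 and CD79B were called in 3 own-line comparisons each. CD38, a surface enzyme of plasma cells, had 12.6 and 15.9 FPKM in AMO1 WT and 6.62 and 6.16 in its BtzR cells. RPMI-8226 went from 45.6 and 56.7 FPKM in WT to 2.43 and 3.02 in BtzR, while ARH-77 had 7.85 and 17.4 in WT against 2.86 and 4.53 with resistance. It was thus lower in the BtzR cells of these 3 lines (log2-fold changes -1.03, -3.80 and -1.47, adjusted p = 0.00367, 9.54e-09 and 0.00121), and in L363 BtzR its log2-fold change was -0.06 (adjusted p = 0.972). CD79B, a chain of the B-cell receptor, fell by 1.06 in AMO1 BtzR (adjusted p = 2.59e-06) and by 1.72 in RPMI-8226 BtzR (adjusted p = 6.65e-09), and rose by 1.00 in L363 BtzR (adjusted p = 2.05e-05), from 9.51 and 8.95 to 22.1 and 17.2 FPKM. The part of these markers in the members' differences was not tested.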

How the data were processed

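RNA-seq of 20 libraries was analysed, 2 biological replicates in each of 10 groups, as grouped by their labels. The deposited values are FPKM that the authors computed for 18305 genes and give to 2 decimals. The submitters' processing notes name HISAT2 2.0.4, Bowtie2 2.2.5 and RSEM 1.2.12. The genome build and any scaling between libraries are not given in the sources used here. No counts were used, so the depth is unknown, no counting interval was computed, and precision rests on 2 replicates. No source used here says whether the replicates were separate cultures, and p-values measure the spread between these libraries.

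FPKM values were transformed as log2(FPKM + 1) and fitted with limma 3.58.1 in R 4.3.3, with a mean for each group over all libraries (10 residual degrees of freedom) and a mean-variance trend. Genes whose mean reached 1 FPKM in some group were tested (13089), and p-values were adjusted over all of them by the Benjamini-Hochberg method. A call needed an adjusted p under 0.05 and a log2-fold change of at least 1. An exact permutation test of 2 against 2 libraries cannot go below a two-sided p of 0.33 and was not used. The script was tested on simulated data. Values in every library are given for members called in a comparison of resistant with WT cells of the same line or with a mean of 10 FPKM or more in a group, other members at 1 FPKM or more by the range of group means, and genes of other lists where called in at least 2 of those comparisons (the 6 with the largest log2-fold change, as 7 met this). The members, lists and ligand and receptor pairs were chosen with earlier results of these data known. Promoter sequences and gene order came from RefSeq (GRCh38.p14). Python 3.11.15 with pandas 2.3.3, numpy 2.4.6 and matplotlib 3.10.9 served for these steps and the figures. Alternatives varied the pseudocount, filter, scaling, trend, replicate block, libraries in the fit and single libraries left out. A sum over the list of B-cell markers is not reported here.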

Additional observations from a re-analysis of the deposited data

Results flagged for a closer look

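By limma's moderated F test, with p-values adjusted over all genes, the difference between BtzR and WT cells was itself different between the 4 lines for 21 members. The receptors without a death domain were TNFRSF1B (adjusted p = 3.22e-06), TNFRSF12A (6.2e-05), CD27 (8.9e-05), TNFRSF18 (0.00121), CD40 (0.00215), TNFRSF14 (0.00225), TNFRSF19 (6.66e-10) and EDA2R (0.0237). TNFRSF19 passed the filter on low values only through AMO1 BtzR, and EDA2R only through AMO1 WT and BtzR. The p-values of TNFRSF19 and EDA2R are therefore descriptions and no evidence of a difference between lines. The death domain receptors were TNFRSF21 (adjusted p = 7.72e-07), TNFRSF10B (2.52e-06), TNFRSF1A (3.34e-06), FAS (8.24e-05), TNFRSF10A (0.000173), TNFRSF25 (0.0026) and NGFR (0.0196). The ligands were CD70 (adjusted p = 1.55e-05), TNFSF4 (5.23e-05) and TNFSF10 (0.0303), and the decoy receptors were TNFRSF10D (0.00567), TNFRSF6B (0.00708) and TNFRSF10C (0.0247). NGFR and TNFRSF10C passed the filter on low values only through ARH-77, so their p-values are likewise descriptions and no evidence of a difference between lines. Because 71.1% of all genes tested passed this test, the number of members that passed sets the family apart from no other genes.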

How the results depend on the processing

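For the 35 called log2-fold changes of single members in comparisons of resistant groups, 462 of 482 alternative values kept the call, 20 lost it and 0 changed sign. Of the counts of members called, most of the larger changes came with the pseudocount. At 0.1 FPKM the counts were 8 for AMO1 BtzR, 5 for L363 BtzR, 7 for L363 CfzR, 2 for ARH-77 BtzR, 5 for the libraries labelled AMO1 CfzR against L363 WT, 4 for L363 CfzR against BtzR and 4 for the mean over 4 lines, and at 0.01 FPKM they were 4, 4, 2, 5, 4 and 6 for all of these but AMO1 BtzR. A smaller pseudocount gives more weight to values near 0. The share of all tested genes called under each setting is not given beside the counts of this paragraph. These counts therefore describe the processing and are no result about the members. Without the filter on low values, or without ARH-77 WT replicate 2 or either BtzR replicate, 0 members were called in ARH-77 by limma. Leaving out 1 library gave 1 to 2 members for L363 CfzR, 0 to 1 for ARH-77, 1 to 3 for L363 CfzR against BtzR and 0 to 2 for the mean over 4 lines. Quantile normalization left 0 for that mean, as TNFRSF1B moved to -0.995. With the compared libraries alone, 2 of 13 tested members differed between the libraries labelled AMO1 CfzR and L363 WT, and the cause was not tested. With the replicate block the count for the difference between lines was 22 in place of 21 and all other counts were as before. Deviations of same-numbered libraries correlated at -0.00554 in AMO1 BtzR and at 0.12 to 0.245 in the other comparisons with WT, and since no label says what a number marks and each comparison has 2 pairs, the numbers were not taken to pair the libraries.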
